A study of Mus musculus with 32 samples.

Results

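The Hox genes of clusters A to D were followed through single-cell RNA-seq of mouse marrow stromal cells that had been driven towards bone in culture (BMSC-OBs). Members were the gene symbols made of Hox, a cluster letter from a to d and a paralog number, with antisense and other noncoding names left out. This gave 39 symbols on 40 of the 31053 gene entries in the files, because Hoxd4 stood under 2 gene identifiers. The rule uses gene names and no measured value.

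Hox genes encode homeodomain transcription factors, and their order along each cluster matches the order in which they are switched on from head to tail and from the base to the tip of a limb. In limbs, paralog 10 is known for the upper segment, which holds the femur, paralog 11 for the middle segment and paralog 13 for the hand and foot. Adult skeletal stromal cells keep much of the code of the place they came from. Blood progenitors use Hox genes as well, chiefly of clusters A and B, with Hoxb4, Hoxa7 and Hoxa9 the best known.

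The cells came from femoral marrow of Diversity Outbred mice, an outbred stock in which each animal carries a different mix of founder genomes. Cells of 4 or 5 mice, 77 mice in all, were joined into 16 pools, each sequenced in 2 runs (32 samples). There was 1 group, with osteogenic culture shared by all pools and no treated or control arm, so cell classes were compared within pools and the pool was the replicate. Cells were not assigned to mice here, so each pool averages over its animals. The study used mice of both sexes, and the sexes within each pool are not given in the labels. Since only femoral marrow was sampled, no other body site was compared.

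Run 1 held 53990642 to 100777353 UMIs (unique molecular identifiers, counted molecules) per pool, and 83906 cells remained after filters. Barcodes shared between pools numbered 1521 of 106313. A cell was called mesenchymal-gated (50945 cells, median 14676 UMIs) or leukocyte-gated (17189 cells, median 4547 UMIs) by at least 3 of 10 marker genes of one side and few UMIs of the other, and 15772 cells were neither. Pool 13 stood apart, with 56.8% of its mesenchymal-gated cells in clusters without a name, so results were repeated without it. Levels are UMIs of a gene per 10,000 UMIs of the cells, which for libraries read from the 3′ end need no division by gene length, although genes can differ in how well their 3′ end is captured.

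Promoters of 3 genes are shown, chosen for their levels. Hoxa10 had the highest level in mesenchymal-gated cells, and Hoxb4 was the member higher in leukocyte-gated cells. Hoxa5 was higher in stromal cells of the adipogenic lineage than in late mesenchymal progenitors (both classes are described below). Each line gives the 250 bases before an annotated start, 5′ to 3′ on the gene's strand, from RefSeq on GRCm38.p6. The Hoxa10 downstream start lies at chr6:52234940-52235189 and its upstream start at chr6:52240855-52241104, Hoxa5 at chr6:52204588-52204837 (all minus strand), and Hoxb4 at chr11:96318017-96318266 (plus strand). Capitals mark matches, on either strand, to a CCAAT box, to TTTAT, the core read by posterior Hox proteins, to TGATNNAT, a joint Hox and Pbx site, or to the TATA box (TATAAA), whose other strand contains the Hox core.
Hoxa10, downstream start: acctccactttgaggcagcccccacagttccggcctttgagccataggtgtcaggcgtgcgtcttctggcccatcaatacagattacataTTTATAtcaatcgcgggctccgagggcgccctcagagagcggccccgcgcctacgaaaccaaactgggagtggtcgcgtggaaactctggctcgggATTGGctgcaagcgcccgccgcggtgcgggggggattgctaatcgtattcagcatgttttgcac
Hoxa10, upstream start: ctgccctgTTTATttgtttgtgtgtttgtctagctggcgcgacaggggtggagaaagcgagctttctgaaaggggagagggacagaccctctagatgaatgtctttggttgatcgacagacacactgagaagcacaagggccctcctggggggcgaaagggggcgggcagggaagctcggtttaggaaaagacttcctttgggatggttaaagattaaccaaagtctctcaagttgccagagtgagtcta
Hoxa5: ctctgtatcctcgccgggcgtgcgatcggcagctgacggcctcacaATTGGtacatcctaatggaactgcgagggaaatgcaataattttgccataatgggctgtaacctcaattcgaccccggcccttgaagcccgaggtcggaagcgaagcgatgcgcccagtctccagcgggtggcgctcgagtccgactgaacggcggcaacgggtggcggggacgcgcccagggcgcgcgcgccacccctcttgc
Hoxb4: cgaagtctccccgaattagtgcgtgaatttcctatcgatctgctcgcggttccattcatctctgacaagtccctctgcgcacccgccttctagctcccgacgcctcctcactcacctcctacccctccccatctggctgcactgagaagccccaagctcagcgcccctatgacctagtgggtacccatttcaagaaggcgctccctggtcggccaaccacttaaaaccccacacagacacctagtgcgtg

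The downstream Hoxa10 window held a CCAAT match 64 bases before the start and the overlapping TATA and Hox core match 160 bases before it, while the upstream window held a Hox core 242 bases before its start. The Hoxa5 window held a CCAAT match 204 bases before its start, and the Hoxb4 window held none of these letters. Among the 24 windows found for 22 Hox genes, 14 held CCAAT, 9 the Hox core, 4 the joint site and 4 the TATA box. The same letters stood in 33.8%, 37.3%, 7.68% and 12.4% of all 32851 windows of that length, so a match describes the window and is no evidence of binding.

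Mesenchymal-gated cells carried a Hox code led by paralogs 9 and 10 of clusters A and C, and cluster D was the lowest in summed level. The 40 entries together had 188889 of 807555706 UMIs, and their summed level was 2.34 ± 0.384 UMIs per 10,000 (SD, n = 16 pools), from 1.68 to 2.90. The 10 highest genes held 84.3% of these UMIs. Of the 40 entries, 21 had at least 1000 UMIs, 9 had under 100, and Hoxd12 and Hoxb13 had 0, which allows a level of up to 3.71e-05 per 10,000 (counting error only).

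Hoxa10, on chromosome 6 at 52231197 to 52240854, led with a lowest, median and highest pool of 0.269, 0.338 and 0.483 UMIs per 10,000. Hoxc10, on chromosome 15 at 102966796 to 102971893, had 0.202, 0.331 and 0.430, and its exons overlap those of Hoxc5 on the same strand, so reads there cannot be credited to either gene. Both are paralogs known for patterning the femur and pelvis. Hoxc9 had 0.229, 0.278 and 0.305, the narrowest range among the 10 highest genes relative to its mean, and Hoxa9 had 0.127, 0.207 and 0.329. These paralog 9 genes act with paralog 10 in the lower trunk. No pool lacked any of the 4.

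Genes usually placed further forward on the body axis were also present. Hoxa7 had pools at 0.126, 0.208 and 0.283 (lowest, median and highest level), and Hoxb2, a hindbrain and skeletal patterning gene, had 0.106, 0.186 and 0.305. Hoxc8 had 0.0865, 0.148 and 0.230, and Hoxc6 had 0.0867, 0.131 and 0.159. These genes thus lay below Hoxa10 in their median pool, though the pool ranges of Hoxa7 and Hoxb2 reached into its range. Hoxa5, a regulator of trunk skeleton and lung, had 0.0508, 0.0993 and 0.141, and Hoxa11, needed for the middle limb segment, had 0.0354, 0.0514 and 0.0666.

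The order of the 10 genes held in most but not all pools. Hoxa10 was above Hoxc10 in 12 of 16 pools, Hoxc10 above Hoxc9 in 12 and Hoxc9 above Hoxa9 in 14. Hoxa9, Hoxa7 and Hoxb2 did not differ beyond their spread, since Hoxa9 was above Hoxa7 in 7 pools and Hoxa7 above Hoxb2 in 7. Below them Hoxb2 exceeded Hoxc8 in 12, Hoxc8 exceeded Hoxc6 in 12, Hoxc6 exceeded Hoxa5 in 14 and Hoxa5 exceeded Hoxa11 in 15. Hoxa11 and the next gene, Hoxc4, were not separated (9 of 16 pools). This order is that of the gate, which mixes cell classes, and need not hold in each class. In late mesenchymal progenitors (LMP-like cells, below) the mean was 0.414 for Hoxc10, 0.315 for Hoxa10 and 0.0706 for Hoxb2.

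Other members fell off over 3 steps. Between 0.0482 (Hoxc4) and 0.0163 (Hoxa4) on the mean level lay, among others and in falling order, Hoxc4, Hoxa3, Hoxd8, Hoxb3, Hoxc11, Hoxc5, Hoxb4, Hoxa2, Hoxd9 and Hoxa4. Between 0.00608 (Hoxa6) and 0.00153 (Hoxa13) lay Hoxa6, Hoxc13, Hoxb9, Hoxd1, Hoxb7, Hoxb5, Hoxc12 and Hoxa13. Below 0.001 lay Hoxd10, Hoxb6, Hoxb8, Hoxb1, Hoxd3, the pair of Hoxd4 entries, Hoxd13 and Hoxd11. Hoxd13, which with Hoxa13 patterns the digits, had 4 UMIs and Hoxd11 had 2, against 27942 of Hoxa10. One Hoxd4 entry, with 4 UMIs, has exons that overlap those of Hoxd3 on the same strand and is uncertain for that reason, and the other, with 3 UMIs, had no coordinates in the annotation used.

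**Figure D1:**
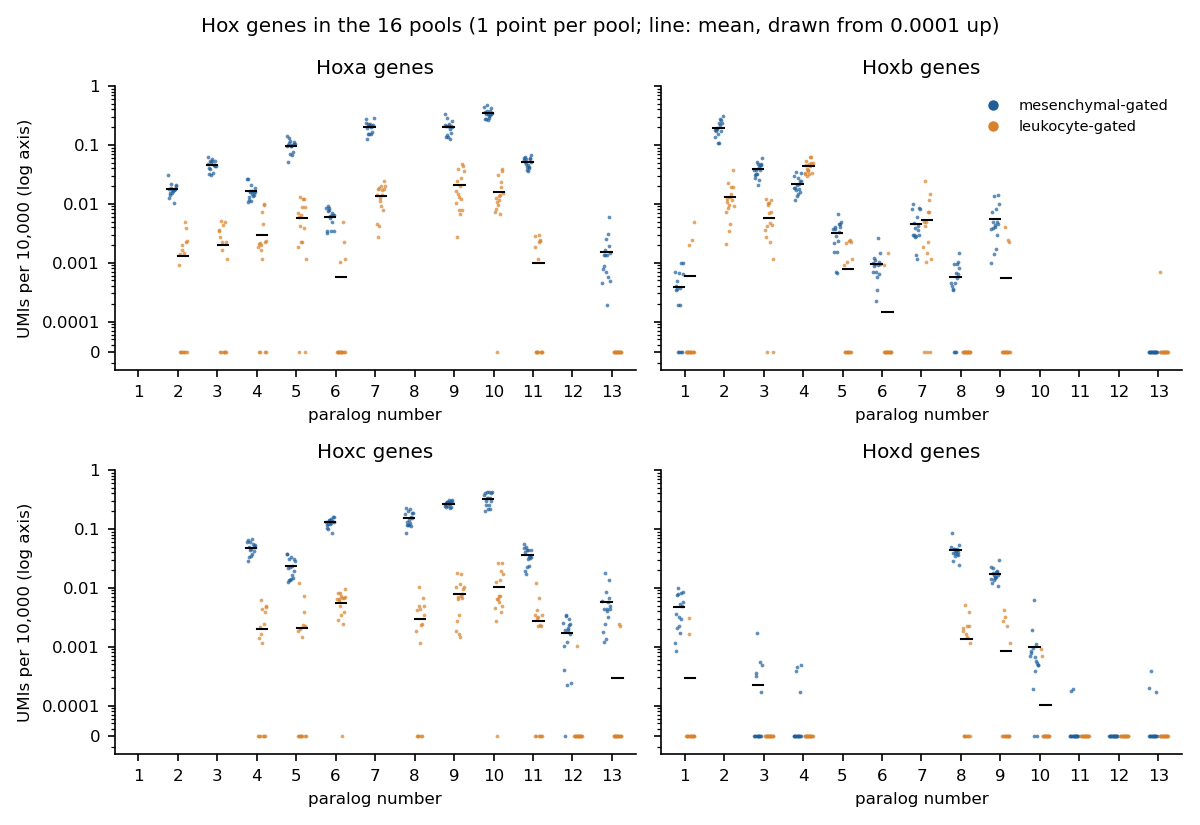
Level of Hox genes (UMIs per 10,000, log axis with 0 added at its foot) against paralog number in mesenchymal-gated (blue) and leukocyte-gated cells (orange), with a panel for each cluster, 1 point per pool and a line at the mean. In mesenchymal-gated cells clusters A and C peak at paralogs 9 and 10, cluster B at paralog 2, and in cluster D only Hoxd8 and Hoxd9 have means above 0.01.

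By cluster, the summed level was 1.01 ± 0.191 for A, 0.991 ± 0.177 for C, 0.270 ± 0.0755 for B and 0.0665 ± 0.0171 for D (SD, n = 16 pools). By paralog number, group 10 held 28.6% of Hox UMIs and group 9 held 21.2%, followed by group 2 with 9.18%, group 7 with 8.78% and group 8 with 8.37%. The digit-patterning group 13 held 0.307% and group 12 held 0.0731%. Paralogs 9 to 13 together had 1.26 ± 0.211 and paralogs 1 to 8 had 1.08 ± 0.183. The range over pools of the share of paralogs 9 to 13, 49.3% to 56.8%, was narrow beside that of cluster B, 6.11% to 18.0%.

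Leukocyte-gated cells had a small Hox signal in which Hoxb4 led. Their summed level was 0.172 ± 0.0566 (SD, n = 16), from 1630 of 97461175 UMIs, and paralog group 4 held 29.6% of it. Part of any stromal gene's count in these cells can come from free RNA in the droplets, so each gene was set beside Col1a1, Col1a2, Sparc and Ibsp, abundant stromal genes whose level in leukocyte-gated cells was 2.24% (Ibsp) to 3.84% (Col1a1) of that in mesenchymal-gated cells. Hoxc10 at 3.57% (95% interval 2.94 to 4.29), Hoxc9 at 2.54% (1.97 to 3.23) and Hoxc8 at 2.26% (1.56 to 3.16) lay within that range, and no expression in leukocyte-gated cells is read from them. Hoxa10 at 4.45% (3.76 to 5.22) was also not separated from it.

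Hoxb4, a regulator of blood stem cell expansion, went the other way. Its leukocyte-gated level had a lowest, median and highest pool of 0.0298, 0.0418 and 0.0618, above its mesenchymal-gated level in 16 of 16 pools, and 190% of it when UMIs were summed (395 UMIs, 95% interval 169 to 212). The mesenchymal gate mixes classes, and the leukocyte-gated mean of 0.0430 lay beside that of MALP-like cells, a stromal class of the adipogenic lineage, at 0.0429. Of the 39 entries with a UMI on either side, 14 had an interval wholly above the highest of the 4 stromal genes. Stromal transcription factors of the limb bud lay on both sides of that limit. Twist1 was at 4.90% (4.48 to 5.35) and Tbx15 at 5.06% (4.16 to 6.10), while Irx5 was at 2.33% and Shox2 at 2.61%. An interval just above the 4 genes is thus not read as expression in leukocyte-gated cells. Among the 14 entries Hoxb13 had 1 UMI and Hoxb1 had 4. After Hoxb4 the highest shares from at least 20 UMIs were those of Hoxb7 (76.8%, 52.4 to 109), Hoxa4 (17.8%, 11.7 to 25.8) and Hoxb3 (17.3%, 13.3 to 22.1). Hoxa9, a driver of myeloid progenitor growth, stood at 9.88% (8.53 to 11.4). Intervals are exact for the ratio of 2 counts and cover counting error only.

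**Figure D2:**
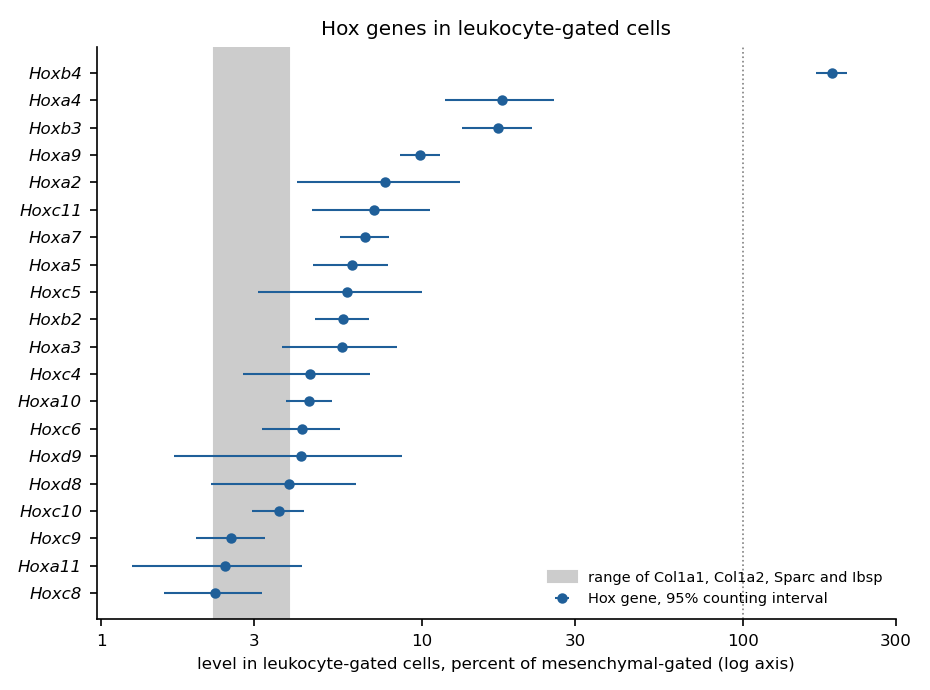
Level of 20 Hox genes in leukocyte-gated cells as a percent of their level in mesenchymal-gated cells (log axis) with 95% counting intervals. Hoxb4 sits at 190%, right of the dotted line of equal levels, while the grey band spans the 4 stromal genes used to gauge free RNA, from 2.24% to 3.84%.

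Hoxb4 was present in most leukocyte classes, and Hoxa9 stood out in some, as values with no test between classes. In macrophage-like cells (14313 cells) Hoxb4 was at 207% of the mesenchymal-gated level (183 to 235, 291 UMIs), and in granulocyte-like cells also at 207% (143 to 290, 34 UMIs). It was at 238% in T cell-like (152 to 355, 24 UMIs), 143% in monocyte-like (104 to 192, 45 UMIs) and 130% in osteoclast-like cells (72.7 to 215, 15 UMIs), and these intervals overlap. Granulocyte-like cells had Hoxa9 at 43.9% (34.1 to 55.7, 68 UMIs), where Col1a1 was at 3.70% and Ibsp at 2.39%. In macrophage-like cells Hoxa9 was at 5.60% (4.39 to 7.03), with Col1a1 at 4.95%. Hoxa9 therefore stood above the stromal genes in granulocyte-like cells, with 11 pools at 0.0417, 0.106 and 0.209 UMIs per 10,000 (lowest, median and highest). Monocyte-like cells had Hoxa9 at 9.76% (6.53 to 14.0, 29 UMIs) beside Col1a1 at 4.75%. Osteoclast-like cells had it at 13.8% (7.73 to 22.8, 15 UMIs) beside Col1a1 at 3.33%, and B cell-like cells had 0 UMIs of it. The osteoclast-like class (540 cells) had Mki67 among its leading genes and depended on the clustering. In the alternative clustering used below, 110 cells were osteoclast-like. An unnamed cluster of 441 cells there, closest to macrophages, was led by Ifi27l2a, Mki67 and Top2a, the last a gene the paper links to cell division. Which cells of the osteoclast-like class carried Hoxb4 and Hoxa9 was not tested. T cell-like cells, which also carried basophil markers, had Hoxa7 at 26.4% (17.1 to 38.9, 25 UMIs) and Hoxa9 at 28.4% (18.7 to 41.3, 27 UMIs), beside Col1a1 at 10.5%. The 193 B cell-like cells of the 4 pools with at least 20 of them had 0 UMIs of Hoxb4, which allows a level of up to 0.0128 UMIs per 10,000.

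The first test asked which Hox genes separate mesenchymal-gated from leukocyte-gated cells of the same pools. edgeR's quasi-likelihood test with pool as a block, Benjamini-Hochberg adjusted over 13398 genes, tested 21 Hox entries, and the other 19 fell under the low-count filter. Of the 21, 20 were higher in mesenchymal-gated cells and Hoxb4 was lower. Over all genes tested, 85.4% passed an adjusted p of 0.05, 47.6% higher and 37.8% lower, so a call by itself is common here. The median log2 fold change of the tested members was 4.23 beside 0.14 over all genes. Genes that reach the filter through their mesenchymal level alone are among them. Hoxd9, for example, had 7 leukocyte-gated UMIs and Hoxa11 had 12. The count of 20 and the median therefore support nothing about the Hox genes as a set.

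Hoxa10 had 0.347 ± 0.0616 UMIs per 10,000 in mesenchymal-gated and 0.0161 ± 0.0108 in leukocyte-gated cells (SD, n = 16), a log2 difference of 4.64 ± 0.16 (SE, edgeR adjusted p = 2.37e-16). Hoxc8 had the largest estimate, at 5.68 ± 0.21, and Hoxa4 the smallest positive one, at 2.66 ± 0.29. The leukocyte-gated share of Hoxc8, 2.26%, lay within that of the stromal genes used to gauge free RNA. That of Hoxa10, 4.45%, was not separated from it. The sizes of these differences, and the rank of Hoxc8, are therefore not read as results. Each of the 20 was higher in 16 of 16 pools, which adds nothing for genes that reach the filter through their mesenchymal level. Hoxb4 had 0.0214 ± 0.00695 against 0.0430 ± 0.0103, a log2 difference of -0.89 ± 0.13 (edgeR adjusted p = 3.39e-06). Col1a1 differed by 4.68 ± 0.15 on the same log2 scale, near the differences of most of the Hox genes, and how much of their leukocyte-gated level was free RNA was not tested.

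Hox UMIs were sparse per cell. With every cell thinned to 2000 UMIs, 37.2% ± 5.34 of mesenchymal-gated cells (SD, n = 16 pools; 27.8% to 44.9%) and 3.74% ± 1.56 of leukocyte-gated cells had at least 1 Hox UMI, and 5478 and 2861 shallower cells were left out. Mesenchymal-gated cells had UMIs of 0.480 Hox genes on average and leukocyte-gated cells of 0.0386. Hoxa10 was seen in 7.29% ± 1.56 and 0.351% of cells, respectively, and Hoxb4 in 0.480% and 1.01%. Without thinning, at median depths over pools of 15175 and 4411 UMIs, Hoxa10 was seen in 36.9% and 0.842%. A cell without a Hox UMI is thus not shown to lack the transcript.

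Clusters on the mesenchymal side were named by markers as late mesenchymal progenitors (LMP-like, 10562 cells), marrow adipogenic lineage precursors (MALP-like, 9964 cells), osteoblast progenitors (OBP-like), osteoblasts (OB2-like) and osteocytes (Ocy-like). The last 3 were joined as osteogenic-like (22735 cells). A class holds all cells of its clusters, gated or not, and 75.0% and 93.5% of the cells in the LMP-like clusters and 31.8% to 88.0% of those in the MALP-like clusters were mesenchymal-gated. The names were rebuilt here without Hox genes among the clustering features, and no cluster matched the OB1 markers at the resolution used for them. At the alternative resolution of 0.8 a cluster of 4803 cells was named OB1-like. Differences from the study can come from these choices. Across the 16 pools 18.4% of mesenchymal-gated cells were LMP-like, 16.9% MALP-like, 43.4% osteogenic-like and 21.3% without a name.

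**Figure D3:**
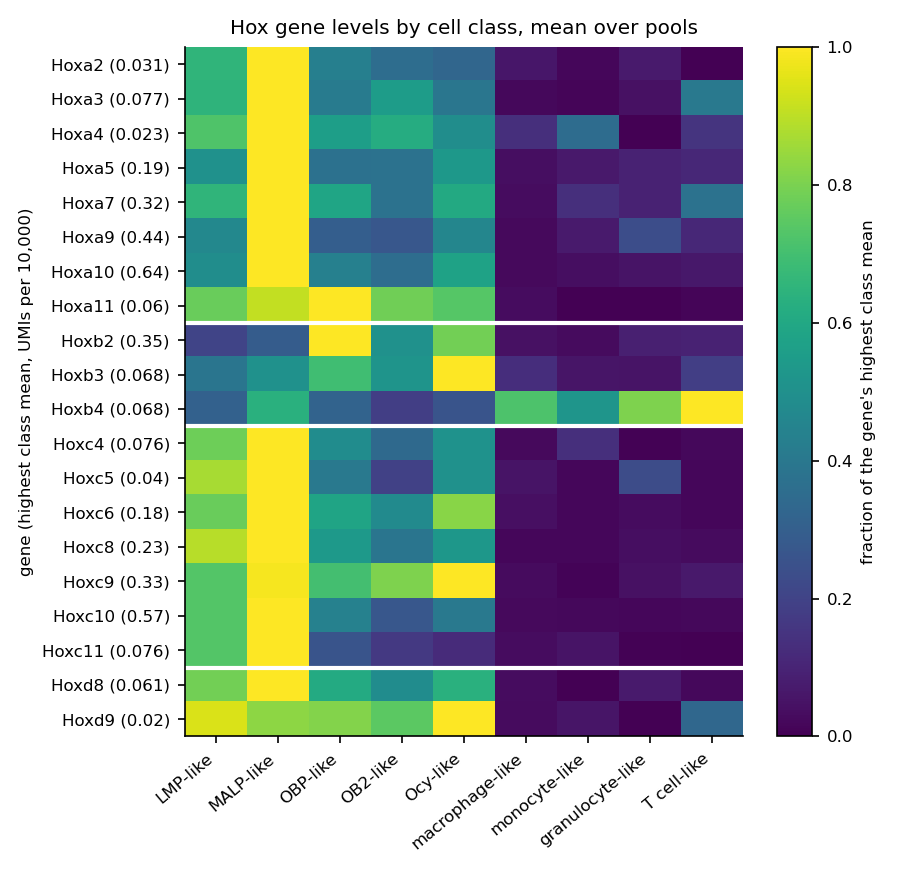
Mean level of 20 Hox genes over pools in each cell class, as a fraction of the gene's highest class mean, with that mean (UMIs per 10,000) beside the gene name. Hoxa9, Hoxa10 and Hoxc10 peak in MALP-like cells, Hoxb2 in OBP-like cells and Hoxb4 in T cell-like cells.

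MALP-like cells had the highest total. Their summed Hox level was 3.64 ± 0.574 UMIs per 10,000 (2.75 to 4.91 over 16 pools), against 2.35 ± 0.375 in LMP-like and 2.01 ± 0.313 in osteogenic-like cells. These are plain levels. On that scale the middle of all genes shifts by 0.26 (log2) in MALP-like and -0.38 in osteogenic-like cells, each against LMP-like cells. No other scaling was applied to these sums or to the shares of cells below. The order of LMP-like and osteogenic-like cells is therefore not established. Cluster A was at 1.83 ± 0.338 in MALP-like and 0.990 ± 0.148 in LMP-like cells, and cluster C at 1.53 ± 0.244 and 1.16 ± 0.226. Paralogs 9 to 13 held 59.6% of Hox UMIs in MALP-like cells, 56.0% in LMP-like and 50.2% in osteogenic-like cells. With cells thinned to 2000 UMIs, at least 1 Hox UMI was seen in 50.6% ± 6.70 of MALP-like, 35.9% ± 5.53 of LMP-like and 32.4% ± 3.75 of osteogenic-like cells. The unthinned shares were 90.8%, 91.5% and 90.9%, at median depths of 10546, 18838.8 and 19672.5 UMIs.

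MALP-like cells, which give rise to marrow adipocytes and support blood cells, were compared with LMP-like cells. Of 22 Hox entries tested by edgeR, 12 were higher in MALP-like cells, Hoxd9 was lower and 9 did not pass. Over all 12034 genes tested 71.1% passed, 35.6% higher and 35.5% lower. The tested members' median log2 fold change was 0.18 beside 0.01 over all genes.

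Hoxa10, Hoxa9 and Hoxa5 of cluster A had the clearest changes. Hoxa10 had MALP-like pools at 0.428, 0.646 and 0.957 UMIs per 10,000 (lowest, median and highest) and LMP-like pools at 0.243, 0.317 and 0.383. The groups did not overlap. The log2 difference was 0.77 ± 0.06 (SE, edgeR adjusted p = 1.28e-10). Hoxa9 had MALP-like pools at 0.217, 0.424 and 0.618 and LMP-like pools at 0.148, 0.203 and 0.273. Its groups overlapped, but it was higher in 16 of 16 pools, by 0.83 ± 0.07 on the log2 scale (edgeR adjusted p = 4.07e-09). Hoxa5 rose by 0.74 ± 0.08 (edgeR adjusted p = 5.12e-08), from a mean of 0.0964 in LMP-like to 0.190 in MALP-like cells, in 16 of 16 pools.

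The largest fold was that of Hoxc13, best known from hair follicles and the limb tip. Its MALP-like pools were at 0.00637, 0.0198 and 0.0851 and its LMP-like pools at 0, 0.00564 and 0.0256, with 16 of 16 pools higher. The log2 difference was 1.43 ± 0.21 (SE, edgeR adjusted p = 3.37e-06), from 284 and 150 UMIs. Hoxc13 fell under the low-count filter in osteogenic-like against LMP-like cells and reached it here through its MALP-like level. Its fold, call and count of pools are therefore not read as results. Other distal genes were too sparse for the test. Hoxa13 had 69 UMIs in MALP-like, 19 in LMP-like and 37 in osteogenic-like cells, and Hoxc12 had 103, 36 and 2. These are raw counts from classes of unequal cell number and depth, so they are not compared between classes. Hoxb4, the gene that was higher in leukocytes, rose by 0.69 ± 0.17 (edgeR adjusted p = 9.77e-04), from 0.0211 to 0.0429, in 14 of 16 pools.

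Smaller rises were those of Hoxa2, Hoxa3 and Hoxa7, at 0.38, 0.37 and 0.37 on the log2 scale, of Hoxb2 at 0.27, Hoxc10 at 0.21, Hoxc9 at 0.18 and Hoxc6 at 0.13. Hoxd9 fell by 0.38 ± 0.16 (edgeR adjusted p = 0.0409), yet its plain level was higher in MALP-like cells in 8 of 16 pools, and 6 alternative settings did not keep the call. Hoxb2 rested on 1 LMP-like cluster, led by Dynap and Hmga2. Without that cluster its difference was -0.01, and Hoxa2 and Hoxa3 no longer passed (edgeR adjusted p = 0.217 and 0.272). The calls of Hoxc6 and Hoxc9 were lost with clusters at resolution 0.8 and with no filter on low counts. Scaling by library size alone, which shifts the middle of all genes by 0.26, turned the split of called genes from 50.1% to 75.6% higher, and under it the differences of Hoxa2, Hoxa3, Hoxa7, Hoxb2, Hoxc10, Hoxc9 and Hoxc6 were 0.64, 0.63, 0.62, 0.52, 0.46, 0.43 and 0.38.

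LMP-like clusters themselves had unlike Hox levels, given as values with no test between clusters. In the cluster led by Dynap and Hmga2 (3202 cells) Hoxa7 was at 0.280 ± 0.0852 UMIs per 10,000 against 0.171 ± 0.0395 in the larger, contractile cluster (7360 cells), higher in 15 of 16 pools. Hoxc11, a paralog of the middle limb segment, was at 0.0695 against 0.0469, higher in 15 of 16, and Hoxc5 at 0.0488 against 0.0266, higher in 14. Hoxb2 was at 0.0487 against 0.0820, higher in 0 of 16 pools, and Hoxa3 at 0.0347 against 0.0554, higher in 2. Without the Dynap-led cluster the calls of Hoxa2, Hoxa3, Hoxb2 and Hoxd9 were lost. Hoxa5, Hoxa7, Hoxa9, Hoxa10, Hoxb4, Hoxc10 and Hoxc13 kept direction and call in 12 of 12 alternative settings, which adds nothing for Hoxc13.

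MALP-like clusters had unlike levels as well. Besides the main cluster (9054 cells), led by Cxcl12, Igfbp3 and Adipoq, the class held 910 cells in a pair of clusters led by Cfd and Retn, with the adipocyte genes Fabp4, Cidec and Plin1 among their leading genes. The larger of these (579 cells) had at least 20 cells in 3 pools only. There Hoxa9 was at 0.267 ± 0.0966 UMIs per 10,000 against 0.475 ± 0.106 in the main cluster, higher in 0 of 3 pools. Its Hoxc10 was at 0.686 ± 0.420 against 0.610 ± 0.0496 and its Hoxc8 at 0.260 ± 0.210 against 0.219 ± 0.0137, each higher in 1 of 3. Its Hoxa7 was at 0.181 against 0.333, higher in 0 of 3. The pair of clusters thus did not share the direction of Hoxa9. The other (331 cells) had Hoxa9 at 0.770 ± 0.264 UMIs per 10,000 against 0.491 ± 0.0841 in the main cluster of the same 7 pools, higher in 6 of 7. Hoxc10 was at 0.246 ± 0.0631 against 0.627 ± 0.0931, Hoxc8 at 0.0488 against 0.249 and Hoxa7 at 0.163 against 0.353, each higher in 0 of 7. These values were not tested. Without the pair of clusters 13 Hox genes were higher in MALP-like cells and Hoxd9 lost its call (edgeR adjusted p = 0.0576). The count of 13 was not set beside the share of all genes under that setting.

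The osteogenic-like cells, which make bone matrix, were set against LMP-like cells next. Of 21 Hox entries tested by edgeR, 6 were higher, 7 lower and 8 did not pass. Over all 12664 genes tested 79% passed, 39.7% higher and 39.3% lower, and the tested members' median log2 fold change was 0.08 beside 0.00 over all genes. Hoxb2 and Hoxb3 of cluster B were higher, and 5 of the 7 tested cluster C genes were lower. With library size alone as scaling, 14 of the 21 were lower, beside 8359 of all 12664 genes, so this count is near that of all genes.

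Hoxb2 had osteogenic-like pools at 0.129, 0.276 and 0.555 UMIs per 10,000 (lowest, median and highest) and LMP-like pools at 0.0490, 0.0716 and 0.0936, and the groups did not overlap. It rose by 2.33 ± 0.12 on the log2 scale (SE, edgeR adjusted p = 3.05e-13). By class the mean was 0.346 in OBP-like, 0.273 in Ocy-like, 0.175 in OB2-like, 0.101 in MALP-like and 0.0706 in LMP-like cells. Within the osteogenic classes Ocy-like exceeded OBP-like cells in 4 of 16 pools and OB2-like exceeded OBP-like cells in 1 of 14. Hoxb3, its neighbour in the cluster and a partner in hindbrain patterning, rose by 1.21 ± 0.12 (edgeR adjusted p = 7.37e-09), from 0.0264 to 0.0476, in 16 of 16 pools.

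Hoxc10 moved the other way. Its osteogenic-like pools were at 0.147, 0.205 and 0.294 and its LMP-like pools at 0.238, 0.426 and 0.545, with 0 of 16 pools higher in osteogenic-like cells. It fell by 0.57 ± 0.05 on the log2 scale (SE, edgeR adjusted p = 3.07e-09). Hoxc11 fell by 1.39 ± 0.12 (edgeR adjusted p = 1.75e-09), from 0.0560 to 0.0158, and Hoxc5 by 0.84 ± 0.11, both in every pool. Hoxc8 fell by 0.47, Hoxc4 by 0.38, Hoxa2 by 0.29 and Hoxa9 by 0.16, all by edgeR's test. Hoxa2 kept its call in 7 of 11 alternative settings (highest edgeR adjusted p = 0.374) and Hoxa9 in 8 of 11 (highest edgeR adjusted p = 0.182). Both calls were lost in the second run and with no replicate block (edgeR adjusted p = 0.115 and 0.0808), that of Hoxa2 also at resolution 0.8 and without pool 13, and that of Hoxa9 also without the LMP-like cluster led by Dynap. Hoxc9 alone of the tested cluster C genes rose, by 0.50 ± 0.05 (edgeR adjusted p = 3.52e-09), from a level of 0.245 to 0.265, and by 0.12 with scaling by library size alone (edgeR adjusted p = 0.0353).

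**Figure D4:**
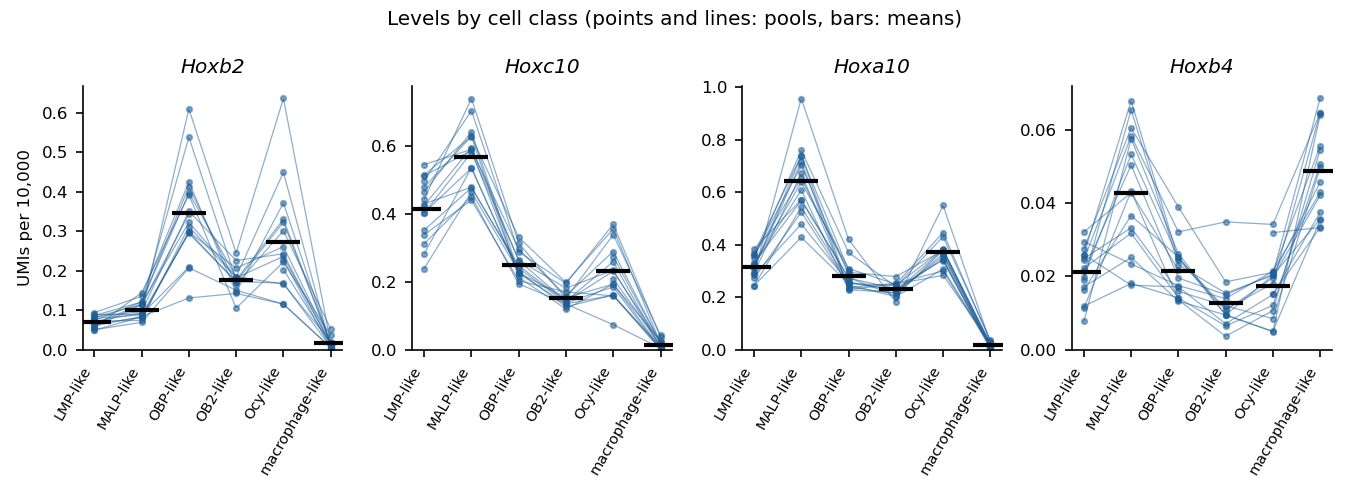
Levels (UMIs per 10,000) of Hoxb2, Hoxc10, Hoxa10 and Hoxb4 by cell class, with points joined by lines for each pool and bars at the class means. Hoxb2 rises from LMP-like to OBP-like cells, Hoxc10 and Hoxa10 are highest in MALP-like cells, and among the classes drawn Hoxb4 has its highest means in macrophage-like and MALP-like cells.

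Hoxa11 rose by 0.63 ± 0.09 on the log2 scale, and by 0.25 with library size alone. Hoxa10 passed with 0.24 ± 0.06, but this direction depends on the scaling. Its plain level was lower in osteogenic-like cells, 0.286 ± 0.0479 against 0.315 ± 0.0424, and scaling by library size alone gave -0.14 (edgeR adjusted p = 0.0536). Col1a1 took 372 UMIs per 10,000 in osteogenic-like and 57.2 in LMP-like cells, and its part in the difference between the scalings was not tested. With library size alone the middle of all genes shifted by -0.38 and 22.7% of called genes were higher in place of 50.2%. Hoxb2 and Hoxb3 were higher, and Hoxc10 and Hoxc11 lower, under either scaling. The falls of Hoxc10, Hoxc8, Hoxc4, Hoxa2 and Hoxa9 were larger with library size alone, at -0.95, -0.85, -0.76, -0.67 and -0.54.

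**Figure D5:**
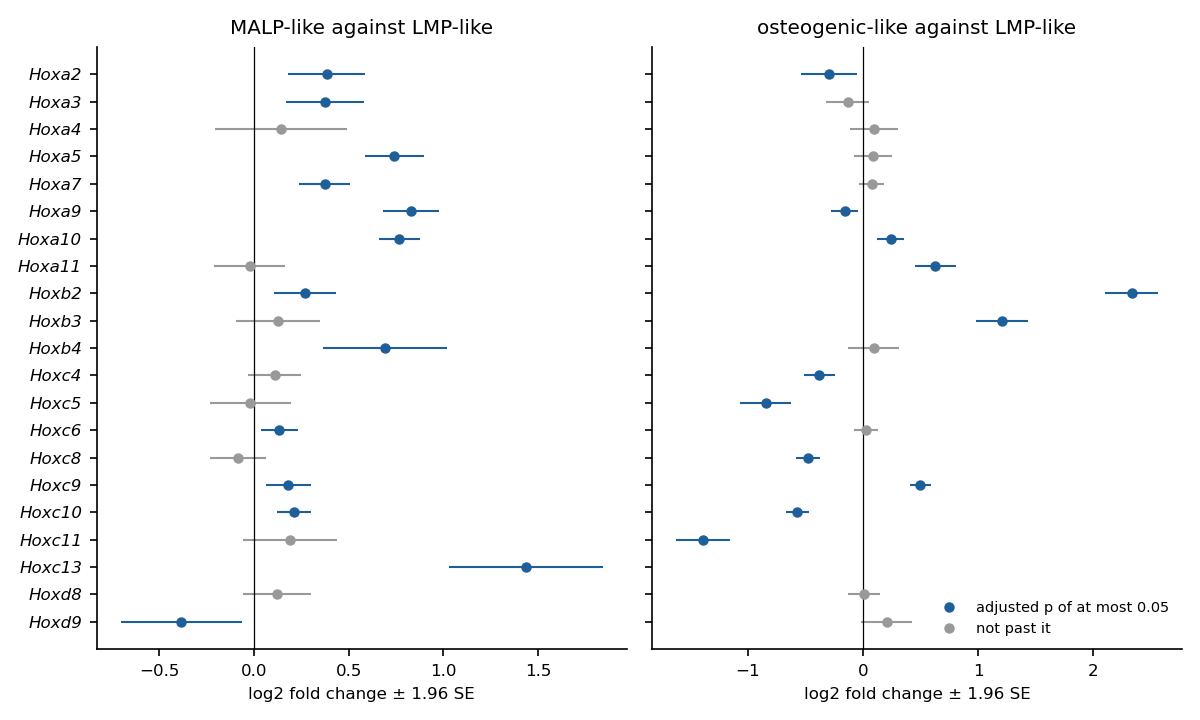
Log2 fold change with its 95% interval from the SE for tested Hox genes (blue where the adjusted p was at most 0.05, grey otherwise), MALP-like against LMP-like and osteogenic-like against LMP-like cells. Hoxc13, Hoxa9 and Hoxa10 have the largest estimates in the first comparison, where Hoxc13 reached the low-count filter through its MALP-like level. Hoxb2 at 2.33 and Hoxc11 at -1.39 mark the ends of the second. Both comparisons share the LMP-like cells.

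Hoxb9, Hoxd1 and Hoxa6 were too sparse for these tests, and their class levels are given as values only. Hoxb9 was at 0.00881 UMIs per 10,000 in osteogenic-like and 0.000273 in MALP-like cells, higher in MALP-like cells in 0 of 16 pools. Hoxd1 was at 0.00721 in osteogenic-like and 0.000982 in MALP-like cells. Hoxa6 was at 0.0160 in MALP-like, 0.00481 in LMP-like and 0.00397 in osteogenic-like cells.

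Hox levels varied between pools. In LMP-like cells, the 21 Hox genes with a mean above 0.01 had coefficients of variation from 13.5% (Hoxa10) to 44.4% (Hoxd9). Counting error alone would give 5.33% for Hoxa10 and 21.7% for Hoxd9. Over the 21 genes the SD was 1.33 to 4.64 times its counting error, so part of the spread is counting. Pool 3 had the lowest value for 9 of the 21 genes and a summed level of 1.50 (460 cells). Pool 18 had the highest value for 6 of the 21 and a summed level of 2.92 (1047 cells). Each pool holds different outbred mice and was made separately, and these cannot be told apart.

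Proteins of the TALE class (Pbx, Meis and Pknox) bind DNA together with Hox proteins. Of 9 such genes, all tested, 6 were higher in mesenchymal-gated cells and 2 lower, with Meis2 at 0.222 ± 0.0554 UMIs per 10,000 and a log2 difference of 5.20. Meis2 had 66 and Pknox2 had 8 leukocyte-gated UMIs and reach the filter through their mesenchymal level, and the share of Meis2, 3.06%, lay within that of the 4 stromal genes, so this count supports nothing about the list. In MALP-like against LMP-like cells 5 of 8 rose and none of the 8 fell by the test, among them Meis1 by 0.71. In osteogenic-like cells 3 of 8 rose and 4 fell, with Meis2 falling by 1.06. The list's median log2 fold changes were 0.60, 0.32 and -0.04 in the 3 comparisons, beside 0.14, 0.01 and 0.00 over all genes. The counts of this and the next lists stand beside 47.6% of all genes higher and 37.8% lower in mesenchymal-gated cells, 35.6% and 35.5% in MALP-like cells and 39.7% and 39.3% in osteogenic-like cells. Counts for this and the next lists are with TMM scaling alone.

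Transcription factors of the limb bud were taken as a second list. All 15 of its 21 genes that could be tested were higher in mesenchymal-gated cells, led in level by Prrx1 (2.02 ± 0.491), Shox2 (1.86 ± 0.420), Irx5 (1.19 ± 0.179) and Twist1 (1.05 ± 0.302). As among the Hox genes, some reach the filter through their mesenchymal level alone, so this count supports nothing about the list. Pitx1, which gives the hindlimb its identity, was at 0.140 ± 0.0329 and higher by 5.00 on the log2 scale. Its leukocyte-gated share, 3.39%, lay within that of the 4 stromal genes, so the size of this difference is not read as a result. Tbx4 of the hindlimb had 170 UMIs and Tbx5 of the forelimb 154, both too few for the test. In osteogenic-like cells 4 of 15 rose, including Irx5 by 1.60 and Shox2 by 1.00, and 10 fell, including Prrx2 by 2.30. In MALP-like cells 6 of 13 rose and 5 fell, with Pitx1 rising by 0.34 and Prrx2 falling by 2.56. The list's medians were 4.79 in the first comparison, 0.09 in MALP-like and -0.35 in osteogenic-like cells. Of 15 head and trunk patterning genes 1 reached the first test, Six2 at 0.0110 ± 0.00404.

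Of 16 Trithorax and Polycomb genes, which keep Hox loci on or off, 6 were higher and 10 lower in mesenchymal-gated cells, where 85.4% of all genes were called. Kdm6b, a demethylase that removes a Polycomb mark, was at 0.927 ± 0.179 against 2.26 ± 0.435. In MALP-like cells 8 of 16 rose and 2 fell, so 10 of 16 were called beside 71.1% of all genes. In osteogenic-like cells 8 rose and 6 fell, so 14 of 16 were called beside 79%. The list's medians were -0.21, 0.11 and 0.09. Of 7 noncoding genes of the Hox clusters, 4 were tested, and all 4 were higher in mesenchymal-gated cells (median 2.92) and in osteogenic-like cells (median 1.15). The first count supports nothing about the list, since Hoxd3os1, Hoxb3os and Hoxaas3 had 11, 24 and 58 leukocyte-gated UMIs and reach the filter through their mesenchymal level. In MALP-like cells 1 of the 4, Hoxb3os, rose. Hotairm1 of cluster A was at 0.522 ± 0.0896 in osteogenic-like and 0.257 ± 0.0587 in LMP-like cells, a rise of 1.42 on the log2 scale.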

How the data were processed

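The members and gene lists used here were chosen with earlier results of these data known. The authors aligned and counted reads with Cell Ranger 5.0.0 on mm10 (per the labels, a 3′ v2 kit) and deposited raw UMI counts per gene and barcode, not normalized and before their filters. The annotation release is not given in the sources used here. Gene coordinates came from GENCODE M21 by identifier (39 of 40 entries). Both runs of a pool hold the same droplets (98.2% of barcodes shared), so run 1 was used and a pool counted once.

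Cells with 400 to 6200 genes and at most 10% mitochondrial, 20% Rpl and 15% Rps UMIs were kept (88909), and 5003 called doublets were removed (0.8% per 1000 barcodes). A gated cell had at least 3 markers of its list of 10, with at least 0.7 (leukocyte) or at most 0.05 (mesenchymal) of its marker UMIs from the leukocyte list, and mesenchymal-gated cells had under 2 endothelial and under 2 glial markers. Clusters came from 3000 variable genes without the lists used here, 15 principal components, 20 neighbours and Louvain resolution 0.5 (python-igraph 0.11.9). Classes needed 20 cells in a pool. UMIs of a class were added up within each pool, and these sums entered edgeR 4.0.16 (filterByExpr, TMM, quasi-likelihood, pool as a block, Benjamini-Hochberg adjusted p of 0.05). The pool pairs the summed samples, which come from the same mice and library, and same-pool deviations correlated at 0.178 or more. In simulated data, 91%, 97% and 97% of 200 genes changed by 1 on the log2 scale were recovered over 13398, 12034 and 12664 genes. Equal numbers of genes were raised and lowered there and no pool effect was put in, so the simulation cannot test the choice of scaling. Alternatives were DESeq2 1.42.0, other scalings, filters, gates, clusterings, depths and pools.

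The text gives in full the 10 members with the highest mesenchymal-gated mean, members higher in leukocyte-gated cells, up to 10 called members per class comparison by size, up to 4 called genes of other lists by level, and Pitx1, Tbx4 and Tbx5. Other members and genes named beyond this rule were chosen after their values were seen. A few results, which enter the counts and sums, are not reported here by name.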

Additional observations from a re-analysis of the deposited data

How the results depend on the processing

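All differences between mesenchymal-gated and leukocyte-gated cells kept their direction and call under each of the alternatives run for them, as did the counts of calls, and the levels of the 10 highest Hox genes and the summed level in mesenchymal-gated cells moved by less than 1 SD. The single lower member in MALP-like against LMP-like cells, Hoxd9, became 0 calls with library size only, with no replicate block, in the second run, without pool 13, without the cluster led by Dynap and without the clusters led by Cfd. The count was 4 with no filter on low counts and 3 at resolution 0.8, and neither was set beside the share of all genes under its setting. In osteogenic-like against LMP-like cells 14 members were lower with library size only, in place of 7, beside 8359 of all 12664 genes, and 10 were higher with no filter on low counts, in place of 6, which was not set beside the share of all genes under that setting.

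Without the cluster led by Dynap, the MALP-like differences of Hoxb2 and Hoxc5 turned to -0.011 and 0.32 on the log2 scale (edgeR adjusted p = 0.924 and 0.0335). With library size only, 8 osteogenic-like differences turned negative, to -0.28 (Hoxa4), -0.30 (Hoxa5), -0.30 (Hoxa7), -0.14 (Hoxa10), -0.29 (Hoxb4), -0.35 (Hoxc6), -0.37 (Hoxd8) and -0.17 (Hoxd9). Of all single-gene values under alternatives, 237 MALP-like ones stayed called in the same direction or stayed uncalled in either direction, 13 lost and 12 gained a call and 2 turned direction with a call on at least 1 side. For osteogenic-like cells these numbers were 212, 8, 4 and 7. The scaling itself shifts all genes, and for the clusters left out the cause was not tested. Without the pairing block, edgeR adjusted p rose to 0.128 for Hoxc6 in MALP-like cells and to 0.0749 for Hoxd9, and to 0.115 for Hoxa2 and 0.0808 for Hoxa9 in osteogenic-like cells, and no other call of a Hox gene was lost under it. The share of cells with any Hox UMI follows the depth. It was 21.1% of mesenchymal-gated and 1.69% of leukocyte-gated cells when thinned to 1000 UMIs and 82.1% and 8.00% with no thinning. The alternatives without a cluster and with library size only were chosen after seeing the data. Members under 100 UMIs are limited by depth, and their order is not established.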

Other observations

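Small sets of cells had endothelial or glial markers, and their Hox levels are given as values from summed UMIs, with no test. The 117 endothelial-marker cells from 14 pools (median 15412 UMIs) had Hoxb7 at 0.454 UMIs per 10,000 (exact Poisson interval 0.365 to 0.559, 89 UMIs), where mesenchymal-gated cells had 0.00454. They had Hoxa7 at 0.444 (0.355 to 0.547), Hoxd8 at 0.367 (0.287 to 0.463), Hoxb8 at 0.168 (0.116 to 0.236), Hoxd9 at 0.153 (0.103 to 0.218) and Hoxd10 at 0.112 (0.0703 to 0.170). Hoxa10 was at 0.204 (0.146 to 0.278) and Hoxc10 at 0.107 (0.0663 to 0.164). Hoxb2 at 0.245 (0.181 to 0.325), Hoxa5 at 0.117 (0.0744 to 0.176) and Hoxa9 at 0.143 (0.0949 to 0.206) lay nearer the mesenchymal-gated levels of 0.198, 0.0971 and 0.202.

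The 123 glial-marker cells from 15 pools (median 8026 UMIs) had Hoxb7 at 0.465 (0.344 to 0.615, 49 UMIs) and Hoxd8 at 0.209 (0.131 to 0.316). Hoxa10 was at 0.0475 (0.0154 to 0.111) and Hoxc10 at 0.0190 (0.00230 to 0.0686), against 0.346 and 0.325 in mesenchymal-gated cells. Hoxb2 at 0.171 (0.101 to 0.270) and Hoxc6 at 0.161 (0.0940 to 0.258) had intervals that held the mesenchymal-gated levels, 0.198 and 0.128. Too few cells came from each pool for a test, and the intervals cover counting error only.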
